A study of Mus musculus with 4 samples.

Results

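The aging colon was examined by comparing 1 array of old mice with 1 array of young mice, both fed a low-fat diet. The old low-fat group was a pool of RNA from 8 male C57BL/6J mice, a common inbred strain, aged 21 months, and the young low-fat group a pool from 6 such mice aged 4 months. Both had eaten a purified diet with 10% of its energy as fat for 2 weeks after a run-in on the same diet, and colon scrapings of mucosa and submucosa were taken after a meal. The high-fat groups of the same ages and pool sizes, which ate 45% of energy as fat for the same 2 weeks, are given beside them where they show how a value moves. There was 1 array (Affymetrix Mouse Gene 1.0 ST) for each pool. A difference between arrays is therefore one between pools, without a replicate check or a p-value. A probe set was a member when it named a single gene and its linear signal was above 50 on either low-fat array. This held for 13763 probe sets of 12521 genes, out of 21789 probe sets that named a single gene and 35556 in all. Of the members, 13056 were above 50 on both low-fat arrays, 243 on the old array alone and 464 on the young array alone.

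The colon wall is lined by absorptive and mucus-secreting cells that renew from crypts, and beneath them lie lymphocytes, macrophages and antibody-secreting plasma cells. Plasma cells of the gut make mainly immunoglobulin A, which the lining carries into the lumen. MHC class II molecules present peptides to helper T cells, and interferons induce antiviral effectors and GTPases in many cell types. Defining markers of the labelled tissue had high signals. Car1, a carbonic anhydrase of colonocytes, had a signal of 15433 on the old and 15441 on the young array, and Muc2, the gel-forming mucin of goblet cells, had 12169 and 13709. The 5 genes of highest signal were Car1, Baiap2l1 (16341 against 16730), Lypd8 (15425 against 15026), Eef1a1 (15058 against 15279) and Rn7sk (14345 against 14833).

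Signals below are linear values of the deposited log2 scale, and a pair of them is given as old against young on the low-fat diet unless other arrays are named. Differences were small for most members. The median log2 difference, old minus young, was 0.010, the central 95% lay between -0.43 and 0.53, and the standard deviation across members was 0.25. In all, 59 probe sets of 57 genes differed by more than 2.0-fold, which is 0.429% of the members. Of these, 51 probe sets of 50 genes (0.371%) were higher on the old array and 8 of 7 genes (0.0581%) were lower. At 1.5-fold the counts were 251 higher (1.82%) and 76 lower (0.552%). The fold of 20 of the 59 was set against a signal of 50 or less on the other array and is not exact.

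**Figure D1:**
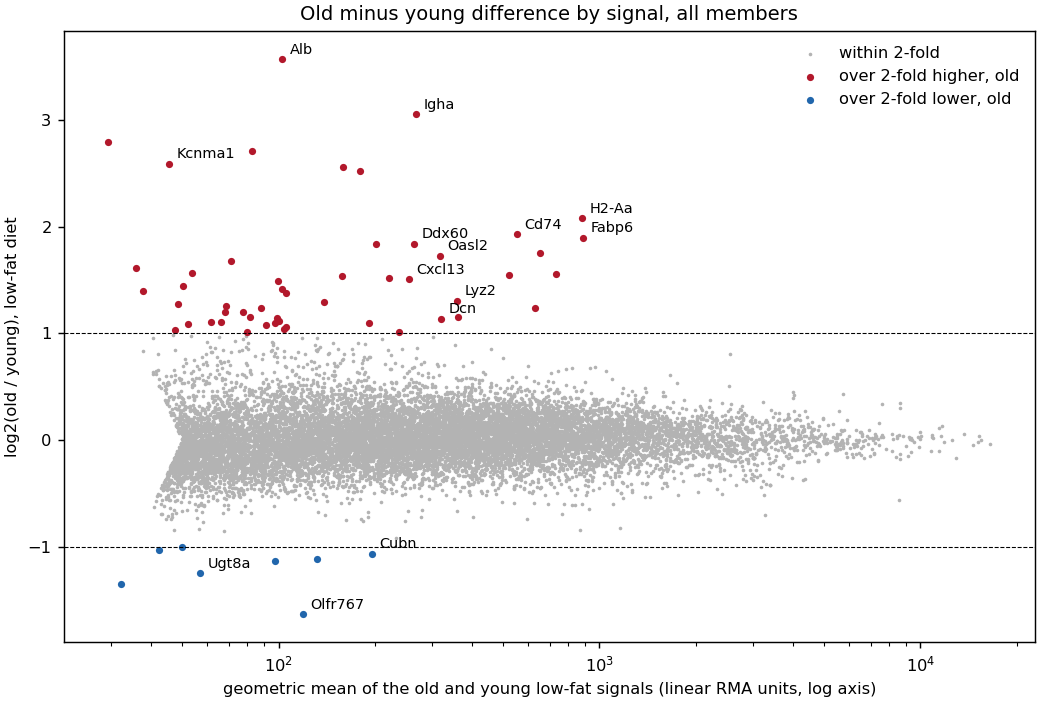
Each point is 1 of the 13763 members, with the geometric mean of both low-fat signals on the log x axis and the log2 ratio of old over young on the y axis; dashed lines mark 2-fold. The 51 members over 2-fold higher (red) spread up to Alb at 3.58, whose young signal is under the floor, the 8 lower ones (blue) down to Olfr767 at -1.63, and none has a mean signal over 1000.

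Spread and calls followed the signal. The standard deviation of the log2 difference was 0.44 among the 356 members with a mean signal up to 50, of which 8 passed 2.0-fold, and 0.29 among the 2767 members between 50 and 100, of which 21 passed. Above a mean signal of 1000 it was 0.17 among 1896 members, and 0 passed. Members near the threshold show how little separates the counted from the uncounted. Just inside, among higher members, were Gbp3 (2.02-fold), Srgn (2.02-fold), Ms4a6c (2.04-fold), H2-DMa (2.06-fold) and Cybb (2.09-fold). Just outside were Zfp975 (1.98-fold), Osmr (1.97-fold), Casp12 (1.97-fold), Laptm5 (1.96-fold) and Cd8b1 (1.95-fold). Among lower members, Cabp4 (2.01-fold), Nrn1 (2.04-fold), Cubn (2.09-fold) and both probe sets of Rps4l (2.17-fold and 2.2-fold) were just inside. Just outside were Hspa1a (1.9-fold), Mir375 (1.81-fold) and Peg3, Cndp2 and Sbk2 (1.79-fold each).

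Of the 50 genes over 2.0-fold higher, 35 were members of the lists of immune genes, which hold 221 of the 12521 genes above the floor (1.77%), and 11 were in none of the 41 lists used here. The lists were written with earlier results of these data known, so this share is a description. For the lists, 1 probe set stood for each gene. Among the 12521 genes above the floor, 51.2% were higher on the old array. Over 1.5-fold, 1.73% were higher and 0.559% lower, 0.375% were over 2.0-fold higher, and the median log2 difference was 0.0055. The counts of each list are read against these values. A gene above the floor on the old array alone is higher by that rule, and one above it on the young array alone is lower. The filter fixed the direction of such genes, and the counts of each list include them. Some counts are also given after centring each array on its median over all probe sets. Centring lowers the median of all these genes by 0.079 too, to below 0, so a centred value near 0 is not the level of the other genes.

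**Figure D2:**
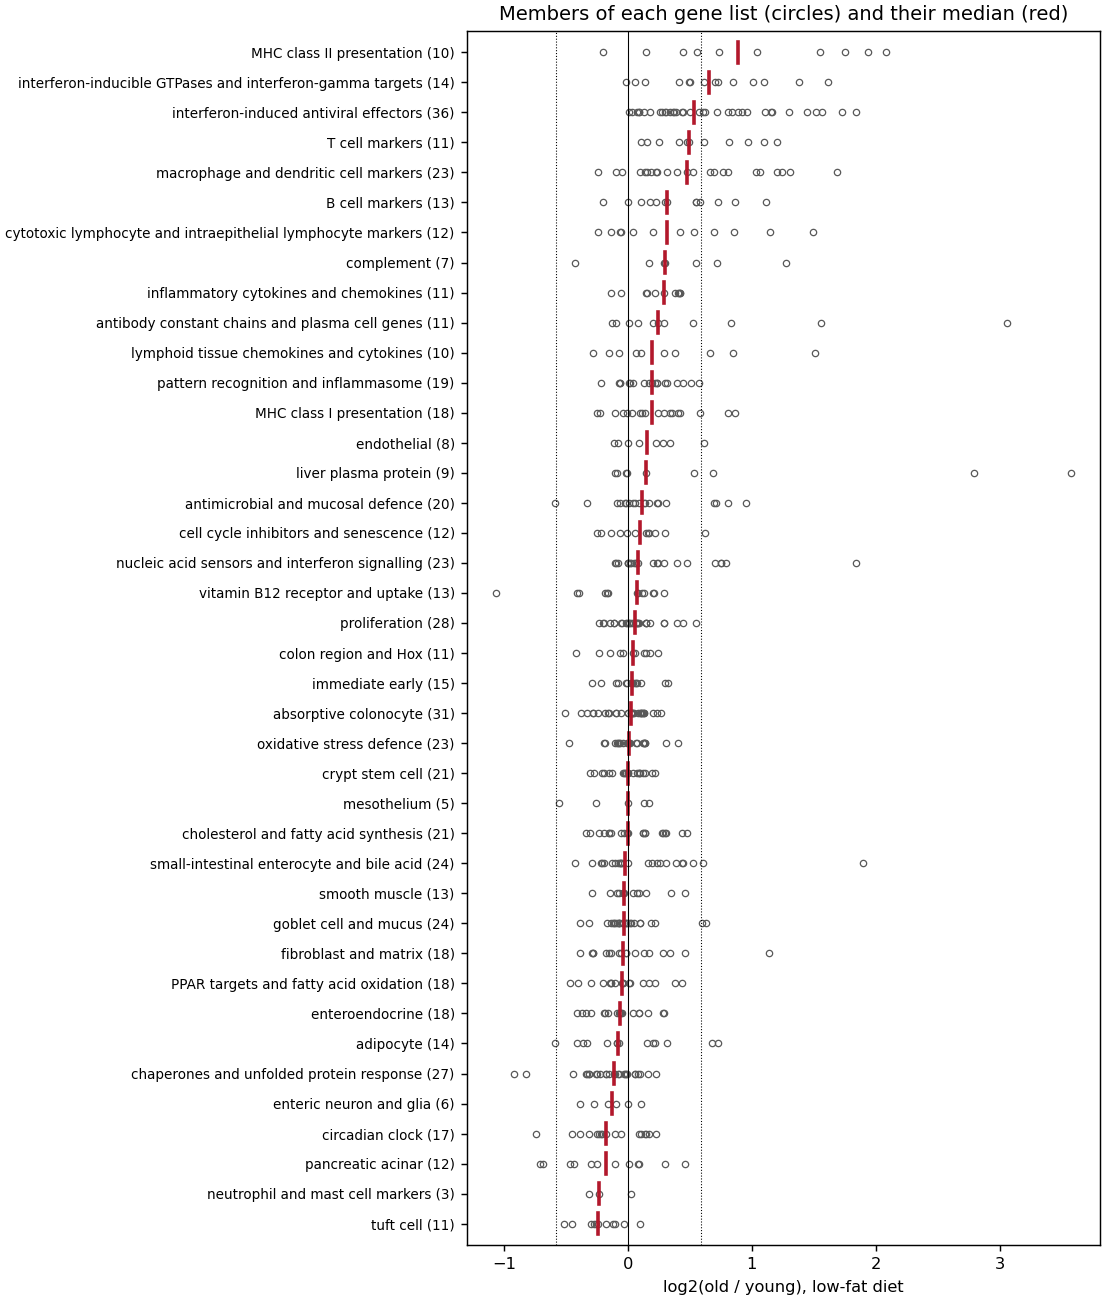
Each circle is a gene above the floor, placed by its log2 ratio of old over young on the low-fat diet, in 1 row per list with at least 3 such genes (number in brackets); red bars are list medians, and dotted lines mark 1.5-fold. The lists run from MHC class II presentation, with a median of 0.89, down to tuft cell genes at -0.24.

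Antibody genes held several of the highest ratios. Igha, the constant region of the immunoglobulin A heavy chain, had a signal of 775 on the old and 93 on the young low-fat array, 8.33-fold higher, and 473 against 81.2 on the high-fat arrays. The old arrays lay above both young arrays on either diet. Its other probe set gave 430.5 against 75.0, which is 5.74-fold. Jchain, which joins immunoglobulin units into dimers for secretion, was 1253 against 426 (2.94-fold). Of 9 probe sets of kappa light chain variable segments, 5 were above the floor, all of these higher and 4 over 2.0-fold. This family was grouped after the data were seen. Igkv9-120 was 385 against 65.1, Igkv10-96 268 against 92.1 and Igkv19-93 168 against 62.9. The other probe set of Igkv19-93, under the floor on both arrays, was 34.9 against 32.1. Igkv4-91 was 212 against 32.3, with 53 against 30.7 on the high-fat arrays. Its young low-fat signal was under the floor, so the filter fixed its direction. Variable segments resemble each other in sequence, so the signal of any of them may include that of its relatives. Ighm, the constant region of the first antibody class a B cell makes, split between its 3 probe sets, with log2 differences of 1.09, 0.87 and 0.08. Pigr, the receptor that carries immunoglobulin A through the lining, was 6838 against 7463, a log2 difference of -0.13, and Xbp1, a plasma cell transcription factor that secretory epithelia also use, was 1334 against 1327. Mzb1, a chaperone of antibody assembly, was 82.9 against 46.7, with the young signal under the floor, so the filter fixed its direction too. Of the 11 antibody and plasma cell genes above the floor, 9 were higher, 3 of them over 1.5-fold, with a list median of 0.24. In these scrapings, more cells of a type and more RNA per cell cannot be told apart.

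The MHC class II genes were higher together. H2-Aa, an alpha chain, had a signal of 1813 against 429 on the low-fat arrays, 4.23-fold higher, and 1702 against 599 on the high-fat arrays. Its partner H2-Ab1, a beta chain, was 1197 against 355 (3.37-fold), and H2-Eb1 was 895 against 306 (2.92-fold). Cd74, the invariant chain that guides class II molecules to the peptide-loading compartment, was 1081 against 283 (3.82-fold), and H2-DMa, a chain of the peptide exchanger, was 149 against 72.5. H2-Ob, a chain of the molecule that restrains the exchanger, was 128 against 76.7. All of these were higher on the old array on both diets. In the list, 9 of 10 genes above the floor were higher, 6 over 1.5-fold and 5 over 2.0-fold, and the median was 0.89. Ciita, the activator of class II transcription, had a log2 difference of 0.55 at a signal of 65.9 against 44.9. Ctss, a protease that trims the invariant chain, was 4695 against 4236 and Ifi30, a thiol reductase of the same compartment, 1590 against 1831, the lowest 2 of the list above the floor. Of 18 MHC class I genes above the floor, 13 were higher and 2 were over 1.5-fold, with a median of 0.19. The immunoproteasome subunit Psmb8 was 364 against 199 (log2 0.87), the peptide transporter Tap1 212 against 121 (0.81) and Psmb9 484 against 323 (0.58), while Nlrc5, the class I activator, was 408 against 484 (-0.25) on its brightest probe set. Its probe sets disagreed. Of 15 above the floor 12 were higher and 3 lower, and 2 passed 1.5-fold, at 94.8 against 53.4 and 84.2 against 49.

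All 36 interferon-induced antiviral effectors above the floor were higher on the old array, with 17 over 1.5-fold, 9 over 2.0-fold (33 were higher and 15 over 1.5-fold after centring each array on its median over all probe sets, which lowers every difference by 0.079, and 35 were higher after quantile normalization), and a median of 0.54. Rtp4, a chaperone induced by interferon, had a signal of 382 against 107 on the low-fat and 387 against 118 on the high-fat arrays. Oasl2, of the oligoadenylate synthetase family, was 579 against 174 and 738 against 179. The old value lay above both young values on each diet. Trim30a was 375 against 131 (2.86-fold), Ifit1, which binds viral RNA that lacks host cap marks, 541 against 243 (2.23-fold), and Herc6, a ligase for the ubiquitin-like protein Isg15, 217 against 88.3 (2.46-fold). Xaf1 was 122 against 54.7. The folds of Ifit2 (92.8 against 31.3), Slfn5 (83.2 against 30.6) and Oas2 (90.4 against 42) were set against signals below 50. Ifit2, Slfn5, Oas2 and Ifit3 (82.1 against 43.4) were above the floor on the old array alone, so the filter fixed their direction. With the floor on both arrays the list median was 0.44. Between 1.5-fold and 2.0-fold lay Rsad2 (log2 0.96), Ifit3 (0.92), Ifitm3 (0.89), Oas3 (0.84), Sp100 (0.81), Usp18 (0.72), Cmpk2 (0.63) and Ube2l6 (0.60). At the low end, Slfn2 was 125 against 124 and Shisa5 2416 against 2360.

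The sensors and signalling genes that act upstream of these effectors were closer to the young level. Of 23 above the floor, 20 were higher, 5 over 1.5-fold, and the median was 0.08. After centring 11 were higher and the median was -0.00012, with the median of all genes above the floor lowered by the same 0.079. Ddx60, a helicase that aids the sensing of viral RNA, was 500.3 against 139.6 (3.58-fold) and 492 against 196 on the high-fat arrays. Dhx58 (log2 0.79), Zbp1 (0.75), Sting1 (0.75) and Irf7 (0.70), which are induced by interferon or relay its induction, made up the others over 1.5-fold. The interferon receptor chain Ifnar1 was 454 against 454, the kinase Tyk2 217 against 233 and the adaptor Mavs 532 against 571. Among interferon-inducible GTPases and interferon-gamma targets, 13 of 14 were higher, 8 over 1.5-fold (7 after centring) and 4 over 2.0-fold, with a median of 0.66. Iigp1, which attacks vacuoles of intracellular microbes, was 62.6 against 20.5, with the young signal under the floor. Gbp4 was 169.8 against 65.1 (2.61-fold), Gm12250 142 against 66.4 (2.14-fold) and Gbp3 113 against 56.2 (2.02-fold). Between 1.5-fold and 2.0-fold lay Gbp9 (log2 0.84), Gbp8 (0.73), Irgm1 (0.70) and Gbp7 (0.61). Iigp1 and Gbp9 (63.6 against 35.4) were above the floor on the old array alone, so the filter fixed their direction. On the high-fat arrays Gbp9 was 51.3 against 49.9. The transcription factor Irf1 was 846 against 855 and the nitric oxide synthase Nos2 57.3 against 55.3.

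Many interferon-induced genes carry an interferon-stimulated response element near their start, and the promoters that hold its letters are shown for that reason. The motif searched for this element was GAAA, then any 2 bases, then GAAA, with overlaps kept, on both strands of RefSeq promoters (build GRCm38.p6, 250 bases before to 50 after a start). It was found in 3.44% of all 32851 promoters and in 3.5% of the 10017 genes above the floor that had a promoter entry. It was found in 10 of 32 such genes over 2.0-fold higher (31.2%), in 15 of 117 between 1.5-fold and 2.0-fold higher (12.8%), in 3.31% of 9820 within 1.5-fold and in 1 of 48 over 1.5-fold lower. In the list of antiviral effectors 13 of 30 held it, and in that of GTPases and interferon-gamma targets 5 of 8. These lists were chosen for their link to interferon, so their shares are no finding of this comparison. Shown are the stretches before the start, 5′ to 3′ along the gene, of the genes of the interferon lists over 2.0-fold higher with a match there; capitals mark the match, which reads TTTC, any 2 bases, TTTC where it lies on the opposite strand.
Ddx60: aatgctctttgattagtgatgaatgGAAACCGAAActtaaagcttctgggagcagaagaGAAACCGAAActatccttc
Trim30a: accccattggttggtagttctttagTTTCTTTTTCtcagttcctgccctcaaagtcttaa
Slfn5: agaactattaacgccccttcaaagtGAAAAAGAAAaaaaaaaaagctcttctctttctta
Ifit1: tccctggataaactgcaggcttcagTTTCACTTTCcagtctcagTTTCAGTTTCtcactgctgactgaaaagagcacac
Gm12250: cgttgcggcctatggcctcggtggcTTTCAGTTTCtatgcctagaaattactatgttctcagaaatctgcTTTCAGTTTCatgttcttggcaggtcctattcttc
Gbp3: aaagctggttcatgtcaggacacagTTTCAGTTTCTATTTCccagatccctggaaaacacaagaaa
They lie at chr8:61928009-61928086 (plus strand) for Ddx60, chr7:104465195-104465254 (minus) for Trim30a, chr11:82951922-82951981 (plus) for Slfn5, chr19:34640760-34640838 (plus) for Ifit1, chr11:58183727-58183831 (plus) for Gm12250 and chr3:142559974-142560039 (plus) for Gbp3. Ddx60, Ifit1, Gm12250 and Gbp3 held 2 matches each, and those of Gbp3 overlapped. Oasl2, Herc6, Xaf1 and Ifit2 had a promoter entry without these letters. Stat2 (249.9 against 249) and Shisa5 held the letters and were within 1.1-fold of the young signal. A match is a description of letters and not a site shown to be bound.

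**Figure D3:**
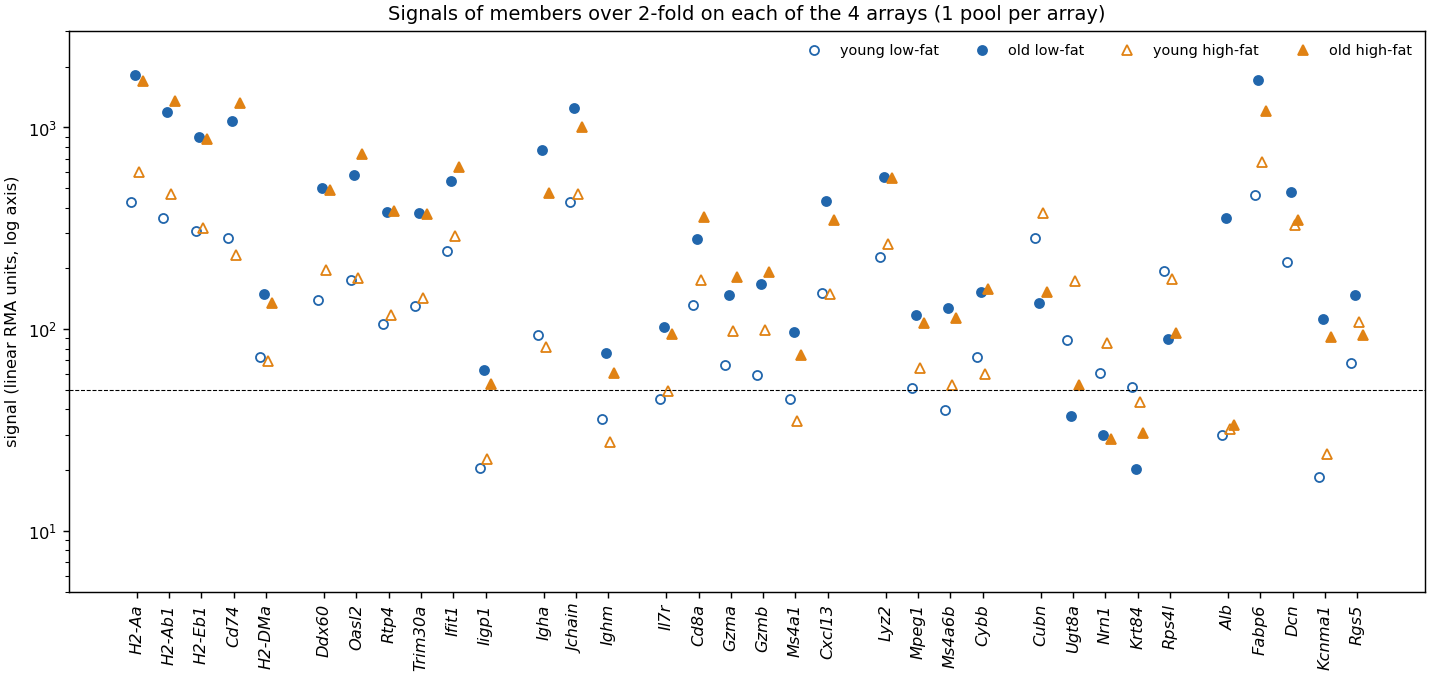
Signals on the log y axis of members over 2-fold on the low-fat diet, with 1 symbol per array (open for young, filled for old, circles for low-fat, triangles for high-fat) and a dashed line at the floor of 50. The antigen presentation and interferon genes shown have both filled symbols above both open ones, whereas Alb is above the floor on the old low-fat array alone.

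Markers of leukocytes moved with these genes, and their part in the higher MHC class II and interferon signals was not tested. Of 20 T cell markers measured, 11 were above the floor and all 11 were higher, 5 over 1.5-fold (4 after centring), with a median of 0.49. The median was 0.44 with the floor on both arrays and 0.33 with no floor. The summed signal of all 20 was 1597 on the old and 1127 on the young low-fat array. Cd8a, the co-receptor of cytotoxic T cells, was 281 against 131 and 359 against 175 on the high-fat arrays. Il7r, a cytokine receptor that keeps T cells alive, was 103 against 44.9, and Cd3g, a chain of the T cell receptor complex, 189 against 108. Another chain of that complex, Cd3e, was 112 against 93.7, and Cd3d and Cd247 were under the floor on both arrays. The co-stimulator Icos was 50.4 against 32.9, with the old signal just above the floor. Il7r, Icos and Cd8b1 (91.3 against 46.8) were above the floor on the old array alone, so the filter fixed their direction. Of 20 cytotoxic and intraepithelial lymphocyte genes measured, 12 were above the floor, 8 of these higher and 4 over 1.5-fold. The summed signal of all 20 was 1893 on the old and 1316 on the young low-fat array. The granule proteases Gzmb (167 against 59.4, 2.82-fold) and Gzma (147 against 66.3, 2.22-fold) led them, followed by the chemokine Ccl5 (616 against 341) and the granule protein Nkg7 (133 against 82.7). The pore-forming Prf1 was 58.6 against 69.5.

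Of 19 B cell markers measured, 13 were above the floor, 11 of these higher and 3 over 1.5-fold. The summed signal of all 19 was 2083 on the old and 1915 on the young low-fat array. Ms4a1, the surface protein CD20, was 97.1 against 45, the complement receptor Cr2 85.6 against 46.9 and Cd79a, of the B cell receptor, 102 against 61.6. Ms4a1 and Cr2 were above the floor on the old array alone, so the filter fixed their direction. The list median was 0.31, and 0.18 with the floor on both arrays. Blnk, an adaptor of that receptor, was 831 against 957. Of 10 lymphoid tissue chemokines and cytokines above the floor, 7 were higher and 3 lower, 3 were over 1.5-fold higher (2 after centring), and the median was 0.20. Cxcl13, the chemokine that draws B cells into follicles, was 431 against 151 (2.85-fold) and 346 against 149 on the high-fat arrays. Cxcr4 (206 against 114) and its ligand Cxcl12 (138 against 87.5) were over 1.5-fold higher on the low-fat arrays, with log2 differences of 0.17 and -0.08 on the high-fat ones. The lowest were Tnfsf11 (105 against 127), the cytokine RANKL, and Ccl19 (55.7 against 62.1), a chemokine that draws T cells into lymphoid tissue.

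Macrophage and dendritic cell markers gave 20 higher of 23 above the floor, with 10 over 1.5-fold (9 after centring), 6 over 2.0-fold and a median of 0.48. The summed signal of all 33 measured was 6993 on the old and 6024 on the young low-fat array. Lyz2, the lysozyme of macrophages, was 567 against 229 (2.48-fold) and 564 against 265 on the high-fat arrays. It is a close copy of Lyz1, described below, so their signals may not be separate. Mpeg1, a pore-forming protein, was 118 against 51.1, Ly86, a partner of a Toll-like receptor homologue, 135 against 57.1, and Cybb, the catalytic chain of the phagocyte oxidase, 152 against 73. Ms4a6b was 127 against 39.6 and Ms4a6c 67.8 against 33.2, both with the young signal under the floor. The growth factor receptor Csf1r (116 against 68.1), the complement chains C1qb (118 against 67.7) and C1qc (170.3 against 105) and the adaptor Tyrobp (70.9 against 44.8) were between 1.5-fold and 2.0-fold higher. Tyrobp, like Ms4a6b and Ms4a6c, was above the floor on the old array alone, so the filter fixed its direction. On the high-fat arrays Tyrobp was 48.3 against 59.4, the reverse order of ages. Cd68 was 81.3 against 73 and Itgam 91.5 against 85.8, and Adgre1 was under the floor on both arrays. Defining neutrophil markers were near background, with S100a8 at 12.3 against 12.4 and S100a9 at 23.3 against 28.7, and 0 of the 3 neutrophil and mast cell genes above the floor passed 1.5-fold. Srgn, a granule proteoglycan of blood cells, was 337 against 167, and Cytip, expressed in leukocytes, 133 against 62.7. Of 7 complement genes above the floor, C1s1 (75.7 against 31.2) and Serping1 (199 against 121), a protease and its inhibitor, were over 1.5-fold higher and Cfb was 1049 against 1410. The filter also fixed the direction of C1s1, whose young signal was under the floor.

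Inflammatory cytokines were mostly under the floor. Of 29 measured, 11 were above it, 9 of them higher and 0 over 1.5-fold, with a median of 0.29, against 0.065 over all 29 with no floor. Tnf was 77.9 against 58.4 and Cxcl1 81.7 against 74. Pattern recognition and inflammasome genes likewise had 15 of 19 higher and 0 over 1.5-fold, from Il1rn (455 against 306), which blocks the interleukin-1 receptor, to Nlrp6 (1308 against 1520).

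The genes of the lining itself held few differences. Of 31 absorptive colonocyte genes, 18 were higher and 13 lower (11 higher after centring), and 0 passed 1.5-fold. Their log2 differences ran from -0.51 for the proton pump Atp12a to 0.26 for the chloride channel Cftr. Stem cell genes (21) and proliferation genes (28) also had 0 past 1.5-fold, with medians of 0.00014 and 0.05. Of 24 goblet cell genes, 2 were over 1.5-fold higher (0 after centring), Clca3a1 (111 against 71.3) and St6galnac1 (56.9 against 37.6), while the goblet cell transcription factor Spdef was 689 against 901. Tuft cells are chemosensory cells of the lining. Of 11 tuft cell genes, 10 were lower, the lowest being Sh2d6 (117 against 168) and Avil (89.4 against 123), but 0 passed 1.5-fold (1 after centring). Their median was -0.24, against -0.05 on the high-fat diet. Among 20 genes of antimicrobial and mucosal defence, 4 were over 1.5-fold higher and 1 lower. The higher ones were Lyz1 (291 against 151), a lysozyme best known from Paneth cells, Reg3g (3366 against 1927), a lectin that kills Gram-positive bacteria, Retnlb (399 against 244), and Duoxa2 (478 against 295), a maturation factor of an oxidase. On the high-fat arrays Reg3g was 1137 against 1366 and Retnlb 339 against 435, the reverse order of ages. The lower one was Saa2 (46.8 against 70.6), a serum amyloid A protein with a near-identical copy, Saa1.

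Fewer genes were lower on the old array. Cubn, which encodes cubilin, a receptor for intrinsic factor carrying vitamin B12, had a signal of 135 against 282 on the low-fat arrays, 2.09-fold lower, and 152 against 378 on the high-fat arrays. Both old signals lay below both young ones. Amn, its membrane partner, was 128 against 168 (log2 -0.40), and 12 of the 13 genes of B12 uptake and use were within 1.5-fold. Ugt8a, which makes galactosylceramide, was 37 against 87.9 and 53.1 against 174, and Nrn1, neuritin, 29.7 against 60.8 and 28.5 against 85.1. Rps4l, a ribosomal protein relative that RefSeq lists as a transcribed pseudogene, was lower on both of its probe sets, with 89.7 against 195 and 65.8 against 145. Its sequence resembles that of other ribosomal protein genes, so the source of its signal is uncertain. Krt84, a hair and nail keratin, was 20.2 against 51.5, close to the floor. Cabp4, a calcium-binding protein known from photoreceptors, was 35.3 against 70.9, and the olfactory receptor gene Olfr767 67.6 against 209.5. The high-fat signals of Cabp4 (52.7 against 45.4) and Olfr767 (80.02 against 74.2) did not have the old array lower.

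Of 27 chaperone and unfolded protein response genes, 21 were lower and 2 over 1.5-fold, Hspa1a (169 against 319.5), the inducible heat shock protein with a near-identical copy, Hspa1b, and its co-chaperone Hsph1 (872 against 1544). On the high-fat arrays the list median was 0.03 against -0.11 on the low-fat ones, and Hsph1 was 1520 against 1495. Of 17 clock genes, 11 were lower and 6 higher, with Per2 (139 against 233), a repressor of the clock, over 1.5-fold, and Tef (-0.45) and Dbp (-0.39) next on the log2 scale. The hour of day at which the mice were killed was not stated. Of 18 genes of fatty acid oxidation, 21 of sterol and fatty acid synthesis and 23 of oxidative stress defence, 0 passed 1.5-fold. The oxidative stress genes split into 12 higher and 11 lower. Among cell cycle inhibitors and senescence genes, Igfbp5 (87.3 against 56.6) was over 1.5-fold higher (0 genes after centring), and Cdkn2a, a widely used senescence marker, was 53.1 against 61.8.

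Several members with high ratios are best known from other tissues or gut regions. Alb, serum albumin, had a signal of 355 against 29.8 on the low-fat arrays (11.9-fold, a ratio set against a young signal under the floor) and 33.7 against 32 on the high-fat arrays, and Serpina1c, another liver plasma protein, 77.6 against 11.2 and 12.1 against 11.8. Only the old low-fat array was high for either gene. Serpina1c belongs to a family of near-identical copies, so its signal may be shared with them. Of the 21 liver plasma protein genes measured, 9 were above the floor and 3 over 1.5-fold higher, the last being Apoa2 (151 against 94.1). Ahsg (31.1 against 15.3) and Fgb (47.1 against 30.6) stayed under the floor, and the summed signal of all 21 was 2008 on the old and 1444 on the young low-fat array. On the high-fat arrays this sum was also higher with age, at 1738 against 1139. Fabp6, which binds bile acids in the ileum, was 1722 against 461 (3.73-fold) and 1202 against 674, while the ileal bile acid importer Slc10a2 was 2143 against 2620. In the list of 24 small-intestinal genes, Fabp6 and Apob (2052 against 1347) were over 1.5-fold higher (Fabp6 alone after centring) and the median was -0.03. The colon region and Hox genes had 0 of 11 past 1.5-fold.

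Dcn, decorin, a proteoglycan of fibroblasts, was 477 against 216 (2.2-fold) and 347 against 329.6 on the high-fat arrays, and the other 17 fibroblast and matrix genes were within 1.5-fold, with Col1a1 at 175 against 213. Of 8 endothelial genes, Esam (58.8 against 38.5), a junction protein, was over 1.5-fold higher (0 genes after centring). Rgs5, expressed in pericytes, was 147 against 68 and 93.9 against 108. Smooth muscle genes had 0 of 13 past 1.5-fold on the low-fat diet and a median of -0.03, against -1.01 on the high-fat diet. Adipocyte genes had a median of -0.08, with Cyp2e1 (191 against 115) and Cd36 (165 against 104) over 1.5-fold higher and Lpl (135 against 203) over 1.5-fold lower, against 1.499 on the high-fat diet. The summed signal of all 15 adipocyte genes measured was 3026 on the old and 3094 on the young low-fat array. Of 12 pancreatic acinar genes above the floor, 2 were over 1.5-fold lower, Ctrl (64.8 against 104) and Ctrb1 (35.3 against 57.7).

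Where a gene had several probe sets they could be set side by side. Among 704 genes with 2 or more members, the range of the log2 difference between probe sets had a median of 0.10 and a 90th percentile of 0.42, and it passed 1 for 6 genes. Kcnma1, a potassium channel opened by calcium and voltage, was among these, with 112 against 18.6 on 1 probe set and 290 against 273 on the other, so its 6.03-fold ratio rests on 1 probe set and a young signal under the floor. Myo9a, an unconventional myosin, had 13 probe sets, 11 of them above the floor. Their low-fat log2 differences ran from 0.024 to 1.26, all of the 13 above 0 (11 after centring). On the high-fat diet the differences of the 13 ran from -0.62 to 0.077. The other genes over 2.0-fold were Vsig2 (964 against 409.6) and AI504432 (61.4 against 23.3), which is listed in RefSeq as a long noncoding RNA.

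The age difference on the high-fat diet, measured on separate pools and arrays, was set beside that on the low-fat diet. Of the 51 members over 2.0-fold higher, 49 were also higher on the old high-fat array, 44 over 1.5-fold and 32 over 2.0-fold. Of the 8 lower, 6 were also lower, 5 over 1.5-fold and 3 over 2.0-fold. Among the 13633 probe sets above the floor on the high-fat arrays, 2.46% were over 1.5-fold and 0.499% over 2.0-fold higher on the old array, and 1.14% and 0.169% lower. Among members between 1.5-fold and 2.0-fold, 57.5% of 200 higher and 47.1% of 68 lower ones kept their direction. Smaller differences more often had the opposite direction on the high-fat diet. Between 1.1-fold and 1.3-fold, 32.8% of 5746 members had the same direction, and between 1.3-fold and 1.5-fold, 37.4% of 1049. Across the 13436 members within 1.5-fold, Pearson's r between both differences was -0.24, as a description across probe sets of 4 arrays that were normalized together, which are not independent. The difference between the diets was not tested.

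**Figure D4:**
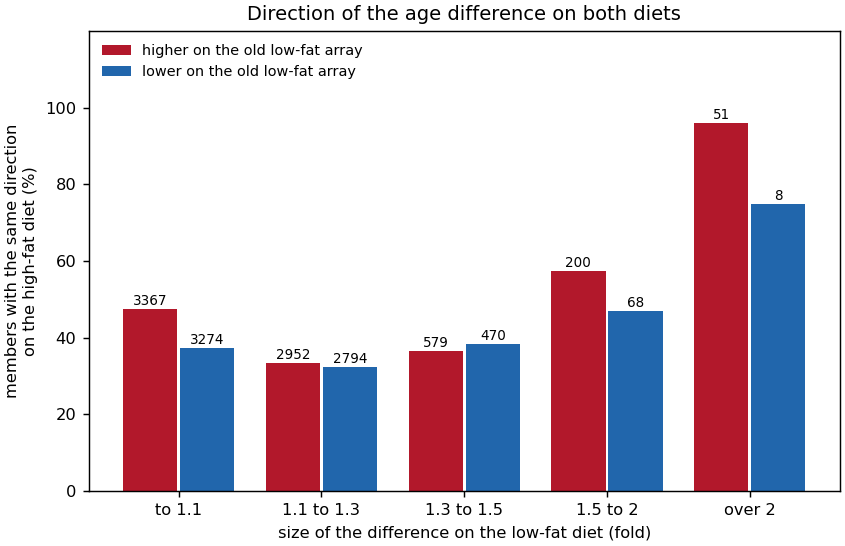
Percentage of members whose old minus young difference had the same direction on the high-fat as on the low-fat diet (y axis), by size of the low-fat difference in fold (x axis); numbers over the bars count the members. The share is lowest between 1.1-fold and 1.3-fold, at 33.3% of the higher and 32.3% of the lower members, and highest over 2-fold, at 96.1% of the higher and 75% of the lower members.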

How the data were processed

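Expression was measured in 4 pools of colon RNA with 1 Affymetrix Mouse Gene 1.0 ST array each. The authors deposited log2 signals made by Robust Multi-array Average (RMA), which corrects background, quantile normalizes the arrays together and summarises each probe set. The version of RMA and the genome build are not given in the sources used here. Genes came from the platform annotation, with 1 gene for 21789 probe sets, several for 1621 and none for 12146, and 21698 of the first were found in RefSeq by Entrez identifier. No column of values was left without a sample.

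The old minus young difference was taken on the deposited scale with Python 3.11.15, numpy 2.4.6 and pandas 2.3.3. Members needed a linear signal above 50 on either low-fat array and were counted past 2.0-fold and 1.5-fold. With 1 array per group no test, error or p-value is possible, and the number of arrays limits the precision. For the 41 gene lists (827 of 923 written genes measured) a gene was represented by its brightest probe set on average over all arrays. Members and lists were chosen with earlier results of these data known. Named are all genes over 2.0-fold, list members past 1.5-fold, some of the 4 highest, 4 lowest and first 4 genes of each list, members next to the threshold, the genes of highest signal and some genes the study names; Stat2, Ahsg and Fgb were chosen after their values were seen. Promoter sequences are from RefSeq. Counting, medians and the motif search were tested on simulated data. Some genes are not reported here.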

Additional observations from a re-analysis of the deposited data

Results flagged for a closer look

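Among members over 2.0-fold on the low-fat diet, 4 had the opposite direction on the high-fat diet. Their log2 differences, old minus young, were 1.26 on low-fat and -0.15 on high-fat for Myo9a, 1.11 and -0.21 for Rgs5, -1.01 and 0.21 for Cabp4, and -1.63 and 0.11 for Olfr767. The median of the adipocyte list was -0.08 with the low-fat diet, against 1.499 with the high-fat diet. These differences between the diets were not tested, since each group had 1 array.

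Probe sets outside the members also differed. Of 6678 probe sets with no gene symbol above the floor, 331 were over 2.0-fold higher on the old low-fat array (4.96%) and 23 lower, with a median log2 difference of 0.10. Of the 331, 53 were also higher on the old high-fat array, and 10 of these over 2.0-fold. Of 919 probe sets with several gene symbols, 26 were over 2.0-fold higher and 6 lower, and 25 of the 26 were also higher on the old high-fat array.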

How the results depend on the processing

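Of 59 probe sets over 2.0-fold (51 higher, 8 lower), 39 remained with the floor on both arrays (4 lower), 45 with a floor of 100 (4 lower) and 35 with 16 added to each signal (1 lower). A threshold of 1.5-fold gave 327 (251 higher, 76 lower) and 3.0-fold gave 17 (16 higher, 1 lower). Under the other floors, scalings, gene summaries and left-out lists the count lay between 54 and 67, with 83.6% to 89.8% higher. Centring each array on its median over all probe sets, which shifts every difference by 0.079, kept 54 of the 59, and quantile normalization of both low-fat arrays kept 56. A list median was counted as moved past 0.1. That of MHC class II genes was 0.73 without a floor, 1.29 with the floor on both arrays and 0.77 with 16 added. Without a floor that of T cell markers was 0.33 and that of macrophage and dendritic cell markers 0.31. Also without a floor, that of cytotoxic lymphocyte genes was 0.17, of lymphoid tissue chemokines 0.083 and of inflammatory cytokines 0.065, and with the floor on both arrays that of B cell markers was 0.18. Centring turned the sign of 8 of 41 list medians, all with a size of at most 0.079. No paired analysis was possible because each group had 1 array. Signals near the floor limit the folds, and 1 pool per group leaves differences between mice unmeasured.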
